A study of Mus musculus with 6 samples.

Results

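Hedgehog pathway genes were followed across mouse gonadal cells on microarrays. They were 9 genes: the ligands Dhh, Shh and Ihh, the receptor Ptch1, the signal transducer Smo, the transcription factors Gli1, Gli2 and Gli3, and the ligand-binding inhibitor Hhip. They were chosen by gene symbol, and 9 of 9 were on the array among 19084 genes, each with 1 probe. All 9 met the filter on low values described below, as did 15459 genes in all.

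The study measured 6 single-colour arrays of cells from ICR mice, 2 for each of 3 groups. For the GSC colony arrays, testicular cells of 80 mice aged newborn to P2 were pooled and grown for 7 days in 5% O2 until colonies could be picked. For the PGC colony arrays, gonadal cells of 67 embryos at E11.5, whose sex is not given, were pooled, grown and picked in the same way. Both cultures used MCDB-201 medium with insulin, transferrin, selenium and EGF (epidermal growth factor, 10 ng/ml), on laminin at 200 ng/cm2, seeded at 80000 cells/cm2. For the CD49f+ sorted arrays, testicular cells of 100 mice aged newborn to P2 were pooled, taken out with magnetic beads by an antibody against CD49f (integrin alpha 6) and not cultured. The labels name the sorted cells' oxygen as physiological hypoxia and give no value for it. No agonist or inhibitor of the pathway was added to any group. In the labels GSC stands for glandular stem cells, and PGC for primordial germ cells. Whether 2 arrays of one group came from separate preparations is not stated, so p-values cover the spread between arrays, which may be technical. Colonies differ from sorted cells in culture, in picking and in selection by CD49f, and these cannot be told apart.

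Hedgehog proteins are secreted signals. In a cell without ligand, Ptch1 holds the membrane protein Smo inactive, and Gli3, and in part Gli2, are processed into repressors of transcription. Ligand bound to Ptch1 frees Smo, which moves into the primary cilium and lets full-length Gli2 and Gli3 act as activators. Gli1, Ptch1 and Hhip are themselves transcribed in responding cells, so they are widely read as targets of the pathway. Ptch1 and Hhip bind ligand and damp the signal. In the testis Dhh is made by Sertoli cells and acts on neighbouring cells that do not make it, the precursors of Leydig and peritubular myoid cells. Dhh is also made by Schwann cells and endothelial cells.

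The stretches before the gene starts of Dhh, Ptch1 and Hhip are shown because against sorted cells these genes went different ways, the ligand and its receptor lower in both kinds of colony and the inhibitor higher. They are 250 bases long, read 5′ to 3′ on each gene's own strand, which is the minus strand for all of them, from RefSeq on mouse build GRCm38.p6. The Dhh window is chr15:98898541-98898790, the Ptch1 window chr13:63565736-63565985 and the Hhip window chr8:80058009-80058258. Capitals mark GC boxes, the motif GGGCGG or its other strand CCGCCC, a motif chosen after the windows had been seen.
Dhh: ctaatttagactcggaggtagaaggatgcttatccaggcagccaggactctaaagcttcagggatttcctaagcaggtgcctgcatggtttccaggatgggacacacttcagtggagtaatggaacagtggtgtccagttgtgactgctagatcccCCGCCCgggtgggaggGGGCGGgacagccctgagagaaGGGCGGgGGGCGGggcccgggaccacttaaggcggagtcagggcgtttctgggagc
Ptch1: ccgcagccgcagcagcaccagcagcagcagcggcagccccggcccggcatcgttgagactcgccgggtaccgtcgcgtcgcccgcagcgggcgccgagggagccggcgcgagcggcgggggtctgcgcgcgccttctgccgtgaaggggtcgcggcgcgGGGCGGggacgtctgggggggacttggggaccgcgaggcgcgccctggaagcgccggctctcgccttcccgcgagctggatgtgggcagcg
Hhip: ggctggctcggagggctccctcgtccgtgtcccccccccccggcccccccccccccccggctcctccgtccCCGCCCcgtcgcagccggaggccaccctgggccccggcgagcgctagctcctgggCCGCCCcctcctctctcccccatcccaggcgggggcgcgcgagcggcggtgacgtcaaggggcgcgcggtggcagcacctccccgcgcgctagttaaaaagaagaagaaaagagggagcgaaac
The Dhh window held 4 GC boxes, the Hhip window 2 and the Ptch1 window 1, with G and C making up 59.6%, 76% and 78.4% of their bases. Of 32851 RefSeq windows of this length, 32.7% held a GC box and 16.7% held at least 2, and the median share of G and C was 52.4%. The consensus that Gli proteins bind, GACCACCCA, was searched on both strands in the 7 of 9 members with an entry (not Shh and Gli1), over 300 bases that run 50 bases past the start. It had 0 matches there, exact or with 1 mismatch, against 0.253% of all 32851 windows with an exact match and 6.74% with at most 1 mismatch. A match would be a description of letters, and its lack says only that they are not in these windows.

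Levels are given on the log2 scale after background correction and quantile normalization of the deposited intensity, so that the arrays share 1 distribution. A difference of 1 on this scale is a 2-fold change in normalized intensity. The level below which 30% of an array's probes lie, 7.82, served as the floor, and genes that reached it on 2 or more of the 6 arrays were tested. The median deposited intensity of an array lay between 393 and 606, lowest on the sorted arrays, and the arrays of a pair correlated at 0.983 to 0.992 over probes. A gene was called in limma at an adjusted p (Benjamini-Hochberg over 15459 genes) under 0.05. The median of all genes tested differed by -0.01 between GSC colonies and sorted cells, by 0.01 between PGC and GSC colonies, and by -0.02 between PGC colonies and sorted cells.

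The labelled cell types were set against marker genes. Of 11 germ cell markers, 3 lay under the floor in GSC colonies, 4 in sorted cells and 5 in PGC colonies. Dppa3, Tdrd1 and Sycp3 were under it in every group, and Dazl, an RNA-binding protein of germ cells, was under it in PGC colonies. Zbtb16 was under the floor in sorted cells and PGC colonies and above it in GSC colonies (10.47 and 10.43). Ddx4, Pou5f1, Mael, Nanos2, Nanos3 and Kit were above it on every array. Sertoli markers (11 genes, Dhh left out) averaged 14.63 on both sorted arrays, 11.79 to 11.99 on GSC colony arrays, and 11.82 to 11.87 on PGC colony arrays. Fibroblast and mesenchyme markers averaged 9.81 and 9.85 on the sorted arrays, 13.92 and 13.96 on GSC colony arrays and 13.31 on both PGC colony arrays. In such bulk RNA, fewer cells of a type and less RNA per cell cannot be told apart.

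**Figure D1:**
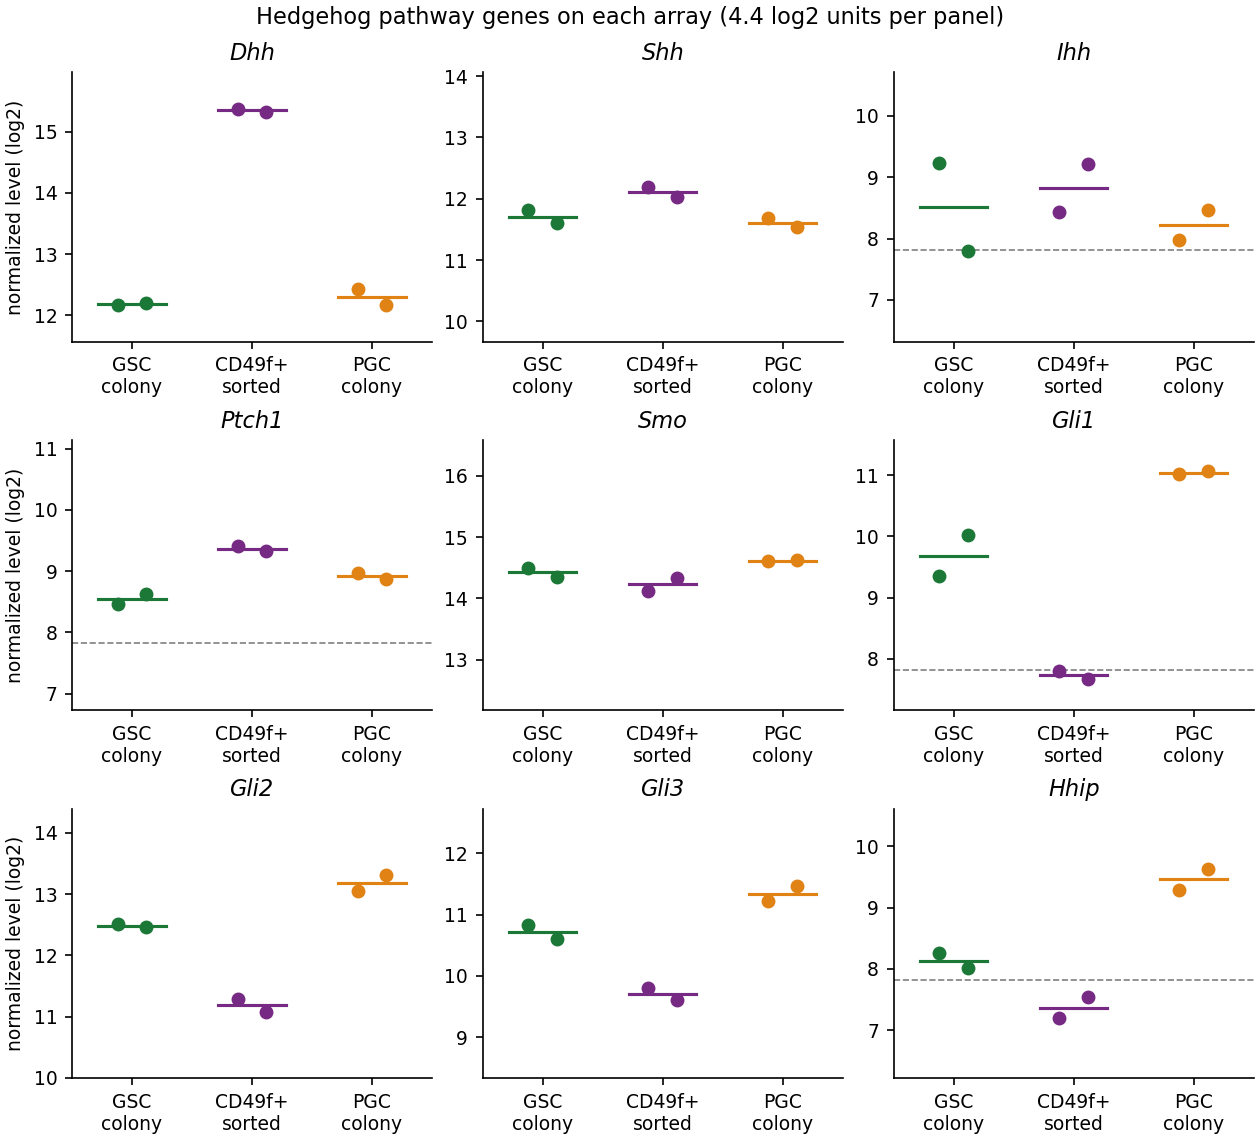
Normalized level (log2) of each of the 9 Hedgehog pathway genes on every array, with a line at the mean of the 2 arrays of a group and a dashed line at the floor of 7.82 where it falls in the panel. Panels span the same number of log2 units; Dhh is highest on both sorted arrays, while Gli1, Gli2, Gli3 and Hhip are lowest there and highest on both PGC colony arrays.

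Dhh, the ligand that Sertoli cells make, had the widest separation between sorted cells and colonies of the 3 ligands. Its level was 15.37 and 15.32 on the sorted arrays, 12.16 and 12.20 on GSC colony arrays, and 12.43 and 12.16 on PGC colony arrays. Both sorted arrays stood far above the 4 colony arrays, and the 2 kinds of colony overlapped. Before any normalization the deposited intensity of its probe was 30586 and 30181 on the sorted arrays against 5104 to 6005 on the colony arrays. Dhh fell by 3.16 ± 0.13 (SE, n = 2 arrays a group) from sorted cells to GSC colonies, an 8.96-fold lower level (limma adjusted p = 7.89e-06), which was the 387th largest change in either direction among the 15459 genes. It was lower by 8.26-fold in PGC colonies than in sorted cells, a difference of -3.05 ± 0.13 (limma adjusted p = 1.14e-05). Between PGC and GSC colonies its difference was 0.12, with a 95% interval from -0.19 to 0.42 (limma adjusted p = 0.595), and its sign turned without PGC colony array 1, to -0.02. Both called Dhh differences kept their call in all 21 alternatives, those without single arrays included.

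Shh, the ligand best known from limb and neural tube, moved little. Its level was 12.19 and 12.03 on the sorted arrays, 11.82 and 11.60 on GSC colony arrays, and 11.69 and 11.54 on PGC colony arrays. The sorted arrays were the highest without overlap, and the 2 kinds of colony overlapped. The difference between GSC colonies and sorted cells was -0.40 ± 0.13 (limma adjusted p = 0.0477), and this call was lost without any single array of the 6, with an adjusted p from 0.0519 to 0.245. The difference between PGC colonies and sorted cells was -0.50 ± 0.13 (limma adjusted p = 0.0224). It was lost without sorted array 1 (0.134), sorted array 2 (0.0541) or PGC colony array 2 (0.0857). Without normalization between arrays, which moves the median gene by 0.465 and 0.423 in these comparisons, both Shh differences turned positive, to 0.16 and 0.03. Relative to the median gene they remained negative, at -0.30 and -0.40.

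Ihh, the ligand of cartilage and gut, could not be ordered. Its level was 8.44 and 9.22 on the sorted arrays, 9.23 and 7.80 on GSC colony arrays, and 7.97 and 8.47 on PGC colony arrays. The arrays of a pair lay up to 1.42 apart, and the groups overlapped. Its differences of -0.32, -0.29 and -0.61 each had an SE of 0.49 and did not pass the test (limma adjusted p = 0.636, 0.744 and 0.364). Without GSC colony array 1 the difference between GSC colonies and sorted cells became -1.02 with an adjusted p of 0.0264, and without GSC colony array 2 it was 0.39.

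Ptch1, the receptor, was highest in sorted cells and lowest in GSC colonies. Its level was 9.41 and 9.32 on the sorted arrays, 8.97 and 8.88 on PGC colony arrays, and 8.46 and 8.62 on GSC colony arrays. No groups overlapped, and the spread within a pair was at most 0.12 (SD). Ptch1 was 1.77-fold lower in GSC colonies than in sorted cells, a difference of -0.82 ± 0.12 (limma adjusted p = 0.00151) that kept its call in all 21 alternatives. In PGC colonies it was 1.36-fold lower than in sorted cells, a difference of -0.44 ± 0.12 (limma adjusted p = 0.0207). That call was lost without sorted array 1 (adjusted p = 0.119), sorted array 2 (0.0737) or PGC colony array 2 (0.0633), and without normalization, where the difference was -0.04. Between PGC and GSC colonies the difference of 0.38, with a 95% interval from 0.10 to 0.66, did not pass after adjustment (limma adjusted p = 0.0788).

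Smo, which carries the signal across the membrane, varied least of the 9 genes, over 0.50 between its lowest and highest array. Its level was 14.13 and 14.33 on the sorted arrays, 14.50 and 14.35 on GSC colony arrays, and 14.60 and 14.63 on PGC colony arrays. PGC colony arrays were the highest without overlap, and the sorted arrays were the lowest, with array 2 just below the lower GSC colony array. The difference of PGC colonies from sorted cells was 0.39 ± 0.12 (limma adjusted p = 0.0399). Its call was lost without any single array of the 6, with an adjusted p from 0.0595 to 0.225. Between GSC colonies and sorted cells the difference was 0.20, with a 95% interval from -0.10 to 0.49 (limma adjusted p = 0.231). This one passed under median centring (0.49, adjusted p = 0.0181) and under centring on the 75th percentile (0.38, adjusted p = 0.0454). It also passed without normalization between arrays, at 0.91, a setting that moves the median gene upward as well.

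Gli1, an activator whose own transcription follows the pathway, was lowest in sorted cells and highest in PGC colonies. Its level was 7.80 and 7.67 on the sorted arrays, 9.36 and 10.01 on GSC colony arrays, and 11.01 and 11.06 on PGC colony arrays. Both sorted arrays lay under the floor of 7.82, so folds against them are lower bounds, and the groups rose from sorted cells through GSC to PGC colonies without overlap. The deposited intensity of its probe was 127 and 109 on the sorted arrays, 712 and 1120 on GSC colony arrays, and 2256 and 2317 on PGC colony arrays. In GSC colonies Gli1 was at least 3.64-fold higher than in sorted cells, a fitted difference of 1.96 ± 0.21 (limma adjusted p = 0.000521). It was at least 9.30-fold higher in PGC colonies than in sorted cells, a fitted difference of 3.31 ± 0.21 (limma adjusted p = 5.72e-05). It was 2.55-fold higher in PGC than in GSC colonies, a difference of 1.35 ± 0.21 (limma adjusted p = 0.00939), and this call was lost without PGC colony array 1 (0.0565) or array 2 (0.0704).

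Gli2, the main activator when ligand is present, kept the same order. Its level was 11.29 and 11.07 on the sorted arrays, 12.51 and 12.46 on GSC colony arrays, and 13.05 and 13.32 on PGC colony arrays. The groups did not overlap. Gli2 was 2.47-fold higher in GSC colonies than in sorted cells (1.30 ± 0.14, limma adjusted p = 0.000498) and 4.00-fold higher in PGC colonies than in sorted cells (2.00 ± 0.14, limma adjusted p = 8.28e-05). From GSC to PGC colonies it was 1.62-fold higher (0.70 ± 0.14, limma adjusted p = 0.0229). That call was lost without GSC colony array 1 (0.053), GSC colony array 2 (0.0586) or PGC colony array 2 (0.0814), and with the replicate numbers as a block (0.0527).

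Gli3, the main repressor when ligand is absent, also rose from sorted cells through GSC to PGC colonies. Its level was 9.79 and 9.60 on the sorted arrays, 10.83 and 10.60 on GSC colony arrays, and 11.21 and 11.46 on PGC colony arrays. The groups did not overlap. Gli3 was 2.03-fold higher in GSC colonies than in sorted cells (1.02 ± 0.15, limma adjusted p = 0.00184) and 3.12-fold higher in PGC colonies than in sorted cells (1.64 ± 0.15, limma adjusted p = 0.000235). The step from GSC to PGC colonies, 1.54-fold (0.62 ± 0.15, limma adjusted p = 0.0401), was lost without any of the arrays but GSC colony array 1, with an adjusted p from 0.0565 to 0.139. It was also lost with the replicate numbers as a block (0.0758). The array measures RNA and does not tell the full-length Gli3 and Gli2 proteins from their repressor forms.

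Hhip, the membrane-bound inhibitor that takes up ligand, was also lowest in sorted cells and highest in PGC colonies. Its level was 7.20 and 7.54 on the sorted arrays, 8.25 and 8.01 on GSC colony arrays, and 9.29 and 9.63 on PGC colony arrays. Both sorted arrays lay under the floor, and the groups did not overlap. In GSC colonies Hhip was at least 1.24-fold higher than in sorted cells, a fitted difference of 0.77 ± 0.18 (limma adjusted p = 0.0143), which was lost without sorted array 1 (0.61, adjusted p = 0.0832). It was at least 3.12-fold higher in PGC colonies than in sorted cells, a fitted difference of 2.09 ± 0.18 (limma adjusted p = 0.000193). From GSC to PGC colonies it was 2.51-fold higher, a difference of 1.33 ± 0.18 (limma adjusted p = 0.00534), the one call of that comparison kept in all 21 alternatives.

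**Figure D2:**
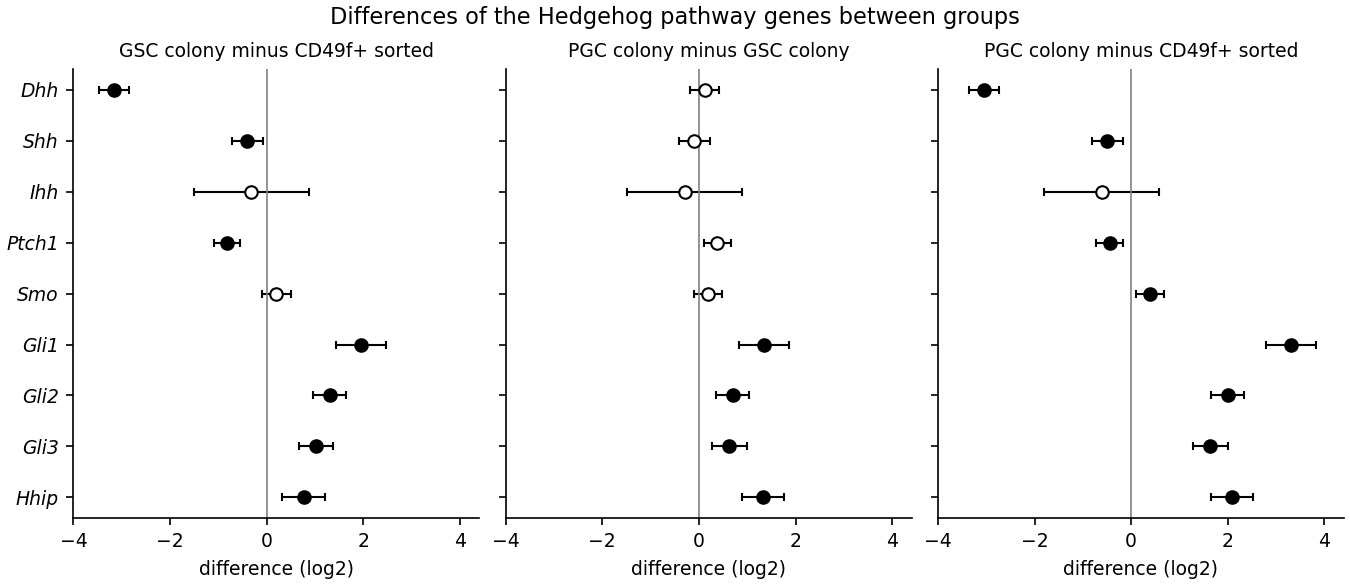
Difference between groups (log2, normalized level) of each gene in the 3 comparisons, with bars for the 95% interval of the limma fit. Filled points were called at an adjusted p under 0.05; Dhh lies far below 0 against sorted cells in both kinds of colony, near 0 between colonies, and Gli1, Gli2, Gli3 and Hhip lie above 0 in every comparison.

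Set side by side, the ligand and its targets did not share 1 order. Against sorted cells, GSC colonies had 4 members called higher (Gli1, Gli2, Gli3, Hhip), where 22.5% of all genes were called higher, and 3 called lower (Dhh, Shh, Ptch1), where 24.5% were. That is 7 of 9 against 47.1% of all genes, and the median difference of the 9 was 0.20. Of the 3 genes read as targets, Gli1 and Hhip rose where Dhh fell, and Ptch1 fell with Dhh. Gli1 and Hhip reached the filter through the colony arrays alone, so their being higher there is partly set by that filter.

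In PGC colonies against sorted cells 8 of 9 members were called, where 46% of all genes were. Higher were Gli1, Gli2, Gli3, Hhip and Smo (22.8% of all genes were called higher), lower were Dhh, Shh and Ptch1 (23.2%), and the median difference was 0.39. This count was 5 without sorted array 1, sorted array 2 or PGC colony array 2. The comparison shares the sorted arrays with the one before, so the 2 are not independent of each other.

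In PGC against GSC colonies 4 members were called, where 15.1% of all genes were. All of these were higher, namely Gli1, Gli2, Gli3 and Hhip (7.08% of all genes were called higher), and 0 were lower (7.98% of all genes). The 5 members that did not pass were the 3 ligands, Ptch1 and Smo, and of these Ptch1 alone had a 95% interval that left out 0. The median difference of the 9 was 0.38. The count was 2 without GSC colony array 2 or PGC colony array 1, and 1 without PGC colony array 2. In this comparison the interval of Dhh held 0, while Gli1 and Hhip were 2.55-fold and 2.51-fold higher.

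The genes whose profile over the 6 arrays lay closest to a member were found by the root mean square distance (log2 units) between profiles centred on each gene's mean, over 15458 other genes. Nearest to Dhh were Unc13b (0.0836), Plac1 (0.0846), Tnfaip3 (0.1), P2ry12 (0.101) and Gmfg (0.103). Nearest to Ptch1 were Caprin2 (0.0374), Tmem229a, Acsf3, Oaz1 and Sema4d (0.0511). Nearest to Gli1 were Il33 (0.199), Cap2, Pcdh18, the Notch ligand Jag1, and Chst2 (0.248). Nearest to Hhip were Prph (0.122), Thsd7b, Nhs, Fgf1 and the glypican Gpc3 (0.146), which itself belongs to the co-receptor list below.

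By the same measure Gli1 and Hhip lay closer to each other and to Gli2 and Gli3 than to Ptch1 or Dhh. From Hhip, Gli2 ranked 96th and Gli3 100th among 15458 genes, while Ptch1 ranked 11243rd and Dhh 15286th. From Gli1, Gli2 ranked 187th and Hhip 269th, against 11877th for Ptch1 and 15314th for Dhh. From Ptch1 the closest member was Shh, at rank 2034, and from Dhh it was Ptch1, at rank 2441. From Ptch1, however, Dhh ranked 14470th, behind Gli3 (13800th), Hhip (14216th) and Gli2 (14287th). The distance is not scaled for the size of a gene's changes, and Dhh ranged over 3.21 on the 6 arrays and Ptch1 over 0.95. It therefore cannot show whether Ptch1 and Dhh form a side of their own. These ranks describe 6 arrays and carry no test. The sorted arrays of Gli1 and Hhip lay under the floor, so their distances and ranks, and the neighbours named for them, rest in part on levels that are bounds.

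The rest of the pathway was read from 5 lists with 92 entries. The array held 88 of them, and 82 passed the filter and were tested. GSC colonies had 19 of the 82 called higher and 17 lower than sorted cells, PGC colonies had 25 higher and 14 lower than sorted cells, and 12 higher and 4 lower than GSC colonies. The medians were 0.00, 0.06 and -0.00, close to those of all genes. That is 36, 39 and 16 of 82 genes, where 47.1%, 46% and 15.1% of all genes were called. The counts of each list below are to be read against the shares of all genes in the same way. The count of 16 calls between the colonies was 10 without GSC colony array 1 and 9 without PGC colony array 2. Without normalization the split against sorted cells was 51 higher and 7 lower for GSC colonies and 47 higher and 5 lower for PGC colonies.

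**Figure D3:**
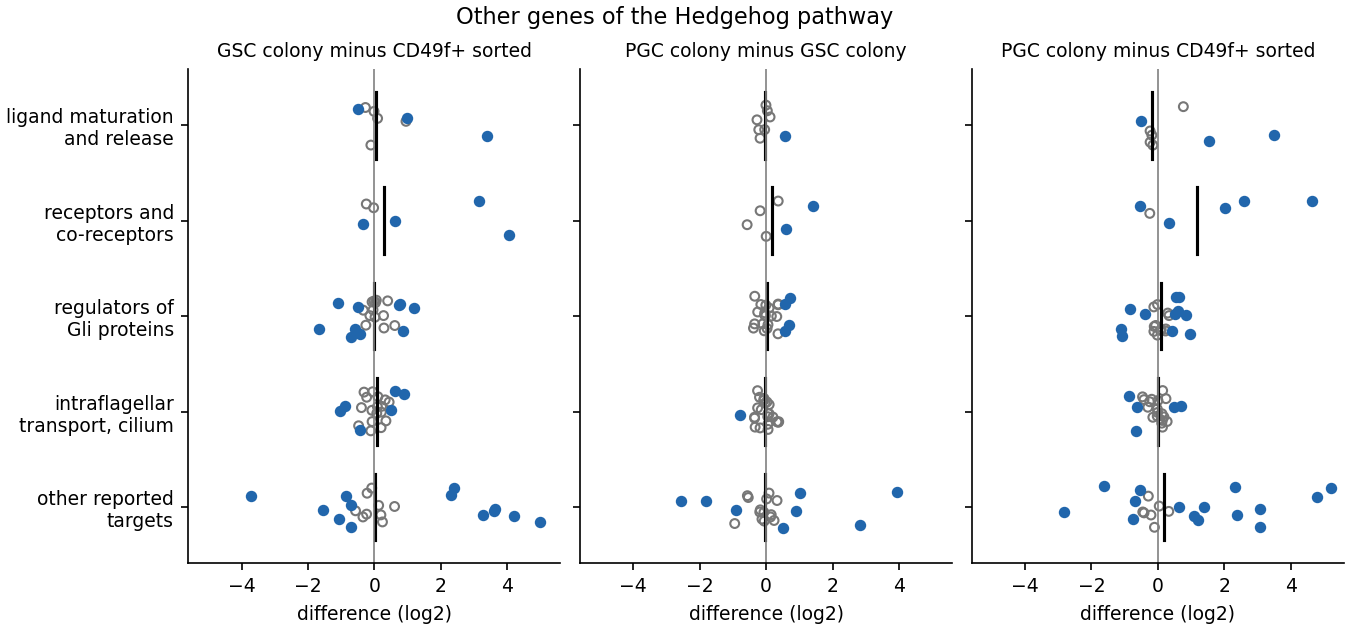
Difference (log2, normalized level) of every tested gene of the 5 other pathway lists in the 3 comparisons, 1 point a gene, filled where called at an adjusted p under 0.05, with a black line at the list's median. Most points of the regulator and cilium lists lie near 0. Against sorted cells Gpc6 and single co-receptors lie above 2, and single reported targets lie beyond 2 on either side.

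The list drawn up for ligand maturation and release held 2 risers and 1 faller among 8 tested, in both comparisons with sorted cells. A place on this list does not show that a gene acts on Hedgehog ligands. Scube1, of a family of secreted proteins that help release the ligand, was higher by 0.98 ± 0.12 in GSC colonies and 1.54 ± 0.12 in PGC colonies than in sorted cells (limma adjusted p = 0.000997 and 0.000145). Gpc6, a glypican of the cell surface, was higher by 3.38 ± 0.17 and 3.50 ± 0.17 (limma adjusted p = 2.13e-05 and 2.21e-05). Notum, an extracellular carboxylesterase, was lower in both, at -0.50, and these calls were lost without either sorted array and, for GSC colonies, without either GSC colony array (adjusted p from 0.06 to 0.0956). Hhat, which attaches the palmitate, and Disp1, which exports the ligand, did not pass the test in any comparison. Between the colonies only Scube1 of these 8 was called, at 0.56 higher in PGC colonies (limma adjusted p = 0.0314), and this was lost without any array but PGC colony array 1 (adjusted p from 0.0667 to 0.133).

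Among the co-receptors, Gas1 and Boc differed most from sorted cells. Gas1, a GPI-anchored co-receptor, lay at 10.03 and 10.28 on the sorted arrays, 14.18 and 14.24 on GSC colony arrays, and 14.82 and 14.78 on PGC colony arrays. Both kinds of colony were far above sorted cells without overlap, by 4.05 ± 0.13 and 4.64 ± 0.13 (limma adjusted p = 3.65e-06 and 4.02e-06). Boc, an immunoglobulin-family co-receptor, was higher by 3.16 ± 0.23 in GSC colonies and 2.59 ± 0.23 in PGC colonies (limma adjusted p = 8.70e-05 and 0.000213). Gpc3, a glypican that competes with Ptch1 for ligand, followed the order of Hhip, with 11.46 and 11.43 on the sorted arrays, 12.08 and 12.06 on GSC colony arrays, and 13.39 and 13.56 on PGC colony arrays. Its rise between the colonies was 1.40 ± 0.11 (limma adjusted p = 0.000632).

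Cdon, the relative of Boc, differed by -0.02 between GSC colonies and sorted cells and by 0.34 between PGC colonies and sorted cells (limma adjusted p = 0.0491), a call lost in 14 of 21 alternatives, among them those without any array but PGC colony array 1 (adjusted p from 0.0929 to 0.187). Lrp2, the large endocytic receptor, was lower in GSC colonies than in sorted cells (-0.35, limma adjusted p = 0.0292) and at least 1.26-fold lower in PGC colonies (limma adjusted p = 0.00579), where both arrays lay under the floor. Its call for GSC colonies was lost without any GSC colony or sorted array (adjusted p from 0.117 to 0.168). In all, 3 of 6 tested co-receptors were higher and 1 lower in GSC colonies, and 4 higher and 1 lower in PGC colonies, against sorted cells. Between the colonies 2 were higher in PGC colonies, Gpc3 and Gas1, and 0 were lower. For Gas1, at 0.59 (limma adjusted p = 0.0267), this was lost without any of the 4 colony arrays (adjusted p from 0.0643 to 0.12).

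Regulators of the Gli proteins went both ways against sorted cells. Of 23, 4 were higher and 6 lower in GSC colonies, and 7 were higher and 4 lower in PGC colonies. Between the colonies 4 were higher in PGC colonies and 0 lower. In the same order, the shares of all genes called higher and lower were 22.5% and 24.5%, 22.8% and 23.2%, and 7.08% and 7.98%. Sufu, which binds and holds back Gli proteins, did not pass in any comparison (-0.14, 0.03 and -0.11). Evc (1.18 and 0.84) and Evc2 (0.77 and 0.61), which relay Smo in the cilium, were higher in GSC and PGC colonies, as were the kinases Ulk3 (0.86 and 0.51) and Stk36 (0.74 and 0.64). The beta-arrestins Arrb1 (-1.66 and -1.08) and Arrb2 (-1.09 and -1.10) were lower. Btrc, which marks Gli proteins for processing, was lower in GSC colonies than in sorted cells (-0.69). The 4 genes higher in PGC than in GSC colonies were Prkacb (0.72), a catalytic subunit of protein kinase A, Kif7, Arrb1 (0.58) and Btrc (0.58). Of these, Prkacb was lost without GSC colony array 1 (adjusted p = 0.055), Btrc without either GSC colony array or PGC colony array 2 (adjusted p from 0.0561 to 0.0972), and Arrb1 without any array but PGC colony array 1 (adjusted p from 0.0677 to 0.131). Prkaca, another catalytic subunit of that kinase, which primes Gli proteins for processing, was lower in both (-0.58 and -0.83). The former call was lost without GSC colony array 1 or either sorted array (adjusted p from 0.132 to 0.148), and the latter without sorted array 1 (0.052) or 2 (0.057). The PGC colony calls of Ulk3 and Evc2 were lost without sorted array 1 (adjusted p = 0.0805 and 0.0552). Kif7, the ciliary kinesin of the pathway, was higher in PGC colonies than in GSC colonies (0.69) and in sorted cells (0.97), but its other probe did not pass in these comparisons, and the former call was lost without GSC colony array 1 (adjusted p = 0.0572).

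Genes of the cilium and of transport along it had the lowest share of calls of the 5 lists, with 3 of 23 called higher and 3 lower in GSC colonies and 2 higher and 3 lower in PGC colonies, against sorted cells. Dync2li1, a light chain of the motor that returns cargo from the tip, was higher by 0.91 in GSC colonies than in sorted cells and lower in PGC than in GSC colonies (-0.79), the latter lost without PGC colony array 1 (adjusted p = 0.0609) or 2 (0.0665). Ift140 (-1.03 and -0.65), Bbs4 (-0.89 and -0.86) and Bbs2 (-0.44 and -0.64) were lower in both kinds of colony than in sorted cells. Ift27 (0.63) and Ift80 (0.50) were higher in GSC colonies, and Ift81 (0.71) and Ift57 (0.49) in PGC colonies. The calls of Ift27 and Ift80 were lost without sorted array 1 (adjusted p = 0.0515 and 0.147), that of Ift80 also without either GSC colony array (0.0898 and 0.0524). That of Ift57 was lost without PGC colony array 2 (0.109) or sorted arrays 1 (0.124) or 2 (0.156), and those of Ift140 in PGC colonies and Bbs2 in GSC colonies without single arrays as well (adjusted p from 0.0522 to 0.124). The Ift57 call was also lost with the mean of its probes (0.23, limma adjusted p = 0.143). Between the colonies Dync2li1 was the 1 gene of 23 that was called.

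Other genes reported as targets gave the largest differences and no shared direction. Of 22 tested, 7 were higher and 6 lower in GSC colonies than in sorted cells, and 10 were higher and 5 lower in PGC colonies. Of all genes, 22.5% were called higher and 24.5% lower in GSC colonies, and 22.8% and 23.2% in PGC colonies. The nuclear receptors Nr2f1 (4.99 and 4.80) and Nr2f2 (3.61 and 3.07) and the zinc-finger factors Osr1 (3.28 and 2.33) and Osr2 (3.63 and 1.08) were higher in both. Fst, which binds activin, had its sorted arrays under the floor, and GSC colonies were at least 9.62-fold and PGC colonies at least 2.73-fold above them. Mycn (-3.73 and -2.83) and Foxm1 (-1.56 and -1.62), which drive proliferation, and the cyclin Ccnd1 (-0.71 and -0.70) were lower in both. Jag2 was at least 1.34-fold lower in each. Fst reached the filter through the colony arrays alone and Jag2 through the sorted arrays alone, so their direction is partly set by that filter. Foxf1, a target in lung and gut mesenchyme, did not pass in any comparison (0.61, -0.56 and 0.04).

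Between the 2 kinds of colony 5 of these 22 were higher in PGC colonies and 3 lower. Foxd1, a factor of stromal progenitors, was higher by 2.82 ± 0.18 (limma adjusted p = 0.000249), Igf2, the growth factor, by 3.95 ± 0.11 (limma adjusted p = 1.93e-05) and Foxc2 by 1.03 ± 0.11 (limma adjusted p = 0.00198). Mycn was higher by 0.90, lost without PGC colony array 2 (adjusted p = 0.0677), and Bcl2 by 0.50, lost without any single array of the 6 (adjusted p from 0.0698 to 0.22). The Bcl2 call was also lost with the mean of its probes (0.39, limma adjusted p = 0.0602). Osr2 (-2.55), Fst (-1.81) and Sfrp1 (-0.90) were lower. Foxd1 kept the order of Gli1 and Hhip, with 8.71 on both sorted arrays, 11.10 and 11.11 on GSC colony arrays, and 14.19 and 13.67 on PGC colony arrays. Igf2 did not, being lower in GSC colonies than in sorted cells by -0.87 and higher in PGC colonies than in sorted cells by 3.08.

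Markers of cell types moved with these results. Against sorted cells, 22.5% of all genes were called higher and 24.5% lower in GSC colonies, and 22.8% and 23.2% in PGC colonies. Between the colonies, 7.08% of all genes were called higher and 7.98% lower in PGC colonies. With Dhh moved the Sertoli markers, of which 10 of 11 were lower in GSC colonies than in sorted cells and 11 of 11 in PGC colonies, with medians of -2.56 and -2.80. Endothelial markers, 9 of 9 lower in both kinds of colony, averaged 11.87 and 11.91 on the sorted arrays and 8.99 to 9.39 on the colony arrays. Schwann and glial markers, 6 of 8 on the array, ranged from 8.64 to 9.57 on average and were highest on the PGC colony arrays. Against sorted cells 2 of the 5 tested were lower and 2 higher in GSC colonies, and 0 lower and 2 higher in PGC colonies. Of 6 steroidogenic markers on the array 4 were lower in each kind of colony, among them Cyp17a1, an enzyme of androgen synthesis, by -2.47 and -3.88. In GSC colonies 1 was higher, Star at 0.35, a call lost in 7 alternatives, and in PGC colonies 0 were higher. Macrophage and leukocyte markers were lower in 8 of 8 cases in both kinds of colony, with medians of -4.37 and -4.16. Rhox5, Sox17 and Pf4 reached the filter through the sorted arrays alone, and S100b through the colony arrays alone. The direction of these genes is partly set by that filter, and the medians include levels under the floor. The part of cell types in the Dhh difference was not tested.

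With Gli1, Gli2, Gli3 and Hhip moved the fibroblast and mesenchyme markers against sorted cells, 9 of 9 tested being higher in both kinds of colony, with medians of 4.42 and 3.73. Between the colonies those markers went the other way, with 7 of 9 lower in PGC colonies, 1 higher (Twist1) and a median of -0.72. The calls of Twist1, Lum, Col3a1 and Tcf21 among them were lost without single arrays (adjusted p from 0.0579 to 0.213). Myoid and smooth muscle markers were higher in GSC colonies than in sorted cells for 4 of 5. In PGC colonies against sorted cells 3 were higher and 1 lower, Myh11 at -0.74. These markers were also lower in PGC than in GSC colonies, 4 of 5. They averaged 11.27 and 11.28 on GSC colony arrays against 9.67 and 9.74 on PGC colony arrays. Skeletal muscle markers were higher in PGC colonies, 5 of 6, with a median of 1.78, and averaged 10.52 and 10.58 there against 8.44 to 8.63 on the other arrays. Macrophage and leukocyte markers were higher in PGC than in GSC colonies for 5 of 8 and lower for 1, with a median of 0.86, and Schwann and glial markers for 3 of 5 and lower for 0, with a median of 0.52. Pf4, called higher in PGC than in GSC colonies, lay under the floor on every colony array. Germ cell markers were lower in PGC than in GSC colonies for 5 of 8 tested and higher for 0. Against sorted cells 5 of 8 germ cell markers were higher and 1 lower in GSC colonies. Between the colonies, the calls of Myod1, Csf1r, C1qa, Sox10, S100b and Nanos3 were also lost without single arrays. Tagln reached the filter through the colony arrays alone, Acta1 through PGC colonies alone and Zbtb16 through GSC colonies alone. Their being higher there is partly set by that filter. The part of these cell types in the Gli and Hhip differences was not tested.

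**Figure D4:**
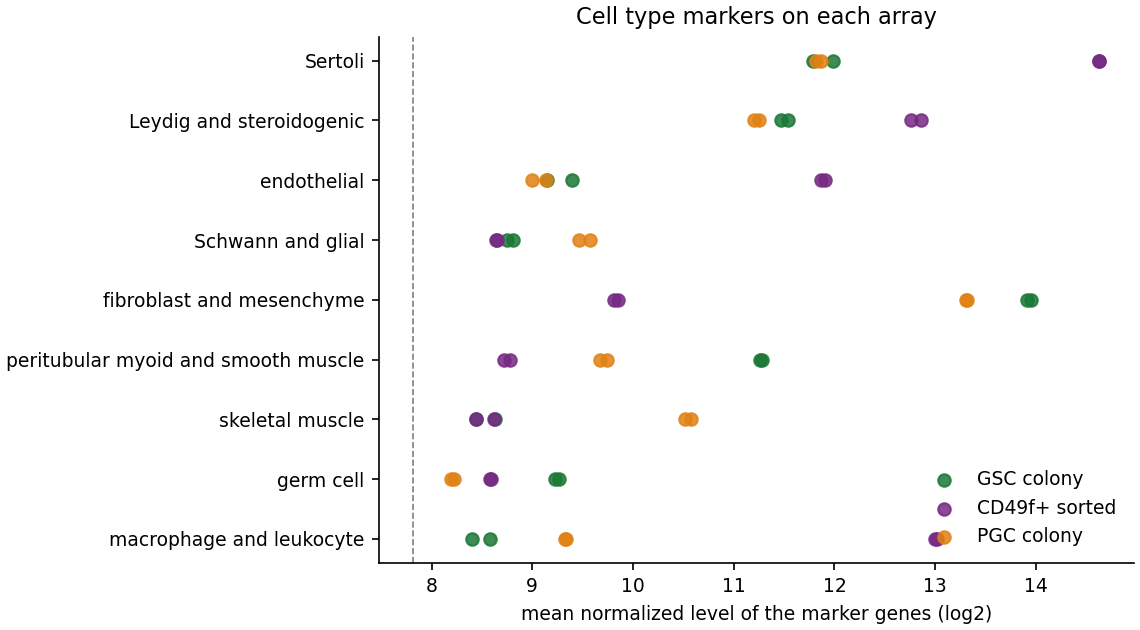
Mean normalized level (log2) of the marker genes of 9 cell types on each array, with a dashed line at the floor of 7.82. Sertoli, steroidogenic, endothelial and leukocyte markers are highest on the sorted arrays, fibroblast and myoid markers on the GSC colony arrays, and skeletal muscle markers on the PGC colony arrays.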

How the data were processed

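Gene expression was measured as Cy5 signal on 6 arrays, grouped by the labels, and 1 µg of RNA with an integrity number of at least 6 was labelled for each. The authors deposited linear probe intensity for 26423 probes, with some values below 0 on 4 of 6 arrays. Their background and scaling steps are, in the sources used here, not given. Per the probe annotation, 21876 probes carried 1 symbol and 4547 none.

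From these intensities, normexp background correction (offset 50), log2 and quantile normalization were computed in R 4.3.3 with limma 3.58.1. A gene was represented by its probe with the highest mean and tested when at least 2 of 6 arrays reached the 30th percentile. All 6 arrays entered 1 fit with 1 mean for each group (3 residual degrees of freedom), tested on simulated data, with Benjamini-Hochberg adjustment over 15459 genes. The median SE of a difference was 0.134. A fold against a group with both arrays under the percentile is a lower bound.

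The members and gene lists were chosen with earlier results of these data known. Named were all members, called genes of the ligand and co-receptor lists, the 3 largest called changes each way of the other lists in each comparison, and Foxf1 and Sufu; 1 further entry of this rule is not reported here. RefSeq promoters (GRCm38.p6) were matched by symbol for 7 of 9 members. Alternatives varied normalization, background, filter, probes, block and arrays.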

Additional observations from a re-analysis of the deposited data

How the results depend on the processing

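Of the member differences under up to 21 alternatives each, 504 values kept direction and side of the threshold, 48 lost the call, 4 gained one and 8 reversed; the cause was not tested. With no normalization between arrays, Shh turned to 0.16 and 0.026 in GSC and PGC colonies against sorted cells and Ihh to 0.059 in the former, where the median gene itself moved by 0.465 and 0.423 and 82.5% and 80.5% of called genes were higher (8179 against 1732 and 7573 against 1838) in place of 47.9% and 49.5%. Leaving out 1 array each, the Ihh difference between GSC colonies and sorted cells ranged from -1.02 to 0.39, and was also positive, at 0.074, without sorted array 2. Between the colonies, Ihh ranged from -0.997 to 0.415 and Shh from -0.203 to 0.011, both turning without GSC colony array 1, and Dhh from -0.018 to 0.251, turning without PGC colony array 1. In the same settings members called ranged from 1 to 3 between the colonies (4 with all arrays), from 5 to 7 for PGC colonies against sorted cells (8) and from 5 to 7 for GSC colonies against sorted cells (7). Genes called between the colonies ranged from 1445 (without GSC colony array 1) to 2039, against 2329.

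The groups share replicate numbers, so a fit with the replicate number as a block was run. It left 2 members called between the colonies (Gli1 and Hhip), 7 for GSC colonies and 7 for PGC colonies against sorted cells (Smo was lost), and 6804, 1707 and 6637 genes. Deviations of same-numbered arrays correlated at -0.342 (GSC and sorted), -0.179 (GSC and PGC) and 0.326 (sorted and PGC), so equal numbers do not pair the arrays in every group. The labels give no other pairing. With the GSC numbers exchanged, an alternative added after seeing the data, 7831, 2703 and 7672 genes were called, each above the count without a block (7279, 2329 and 7111). The stricter filter dropped Ihh. With 2 arrays a group and the signal over background known only through the floor, small differences such as those of Shh and Smo rest on single arrays, and levels of Gli1 and Hhip in sorted cells are bounds.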
